A study of Mus musculus with 32 samples.

Results

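Adhesion molecules that carry leukocytes across the vessel wall were followed through 9 genes, taken by symbol from both count tables of a mouse stroke experiment: the selectins Selp and Sele, the immunoglobulin-family receptors Icam1 and Vcam1, the selectin ligand Selplg, and the integrin chains Itgal, Itgam, Itgb2 and Itga4. All 9 were among the 33280 genes of each table. All 9 also passed the filter on summed counts, which left 18968 genes in tissue and 18297 genes in sorted cells. In tissue Selp passed through the lesioned side, with 114 counts there against 1 on the other, and Sele likewise with 97 against 3.

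Leukocytes leave the blood in steps. Selectins on activated endothelium catch the glycoprotein PSGL-1 (Selplg) and let cells roll, chemokines and adaptor proteins then switch integrins to their binding form, and the integrins LFA-1 (Itgal with Itgb2), Mac-1 (Itgam with Itgb2) and VLA-4 (Itga4 with Itgb1) hold the cell on ICAM-1 or VCAM-1 before it crosses. Resting brain endothelium carries little of the selectins, and inflamed brain vessels display more of them, while Mac-1 is also a standing surface protein of microglia and macrophages.

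Wild-type mice of both sexes received vehicle (CTL) or BLZ945, which blocks CSF1R and so removes microglia and CNS-associated macrophages (CAMs) that need this receptor, at 200 mg per kg for 7 days, and were left for 8 weeks so that the cells returned. Thrombin was then injected into the middle cerebral artery to form a clot, and 1 day later RNA was sequenced from tissue slices and from sorted CAMs of the lesioned (ipsilateral) and the opposite (contralateral) hemisphere. The 4 CTL mice were A2, A3, A4 and B1 and the 4 BLZ945 mice C2, C3, C4 and D1, which gave 32 libraries. Every mouse had a stroke, so the contralateral side of an operated animal is the reference throughout, and the labels give no age. The choroid plexus was taken out, and CAMs were then sorted as CD45+ CD11b+ CD206+ cells that lacked Ly6C, CD11c and Ly6G. The labels give 1 mouse for each CAM library.

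The tissue libraries held 9288717 to 12781505 counts and the 14 CAM libraries used held 7397393 to 11081409. Ipsilateral CAM libraries of A3 and C2, labelled as degraded RNA, held 54055 and 55155 counts and were left out. For the tissue of A3 the sample labels and the column names of the count table disagree on which library is ipsilateral. The labels were followed. Results under the other reading are given beside the tissue results, because it leaves 1 gene of the whole tissue table called in the response averaged over treatments. CPM, the unit of all levels, are the counts of a gene for each 1000000 counts of its library after that total is scaled by a TMM factor. The 4 neuron markers reached 5290 to 8668 CPM in sum in each tissue library. The 8 CAM markers summed to between 1453 and 9365 CPM in the sorted libraries, where the 6 microglia markers summed to more in every group, with group means of 9210 to 19335 CPM. Libraries were scaled by TMM factors, and differences are log2 fold changes with their standard error (SE), called when edgeR's Benjamini-Hochberg adjusted p over all genes is under 0.05.

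Selp, Sele and Icam1, the 3 members that stood higher in lesioned tissue and act on endothelium, are shown first with the 250 bases before their RefSeq start on GRCm38.p6, all on the plus strand. Capitals mark matches to the letters GGGNNNNNCC or GGAANTTCC, simple forms of the NF-κB motif searched on both strands, and, in Sele, to TATAAA searched on the plus strand.
Icam1 chr9:21015690-21015939: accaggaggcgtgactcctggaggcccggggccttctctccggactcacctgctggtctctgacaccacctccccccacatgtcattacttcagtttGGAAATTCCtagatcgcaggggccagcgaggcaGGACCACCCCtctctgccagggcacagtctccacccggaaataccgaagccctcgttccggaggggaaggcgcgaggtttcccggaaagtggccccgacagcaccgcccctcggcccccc
Selp chr1:164115014-164115263: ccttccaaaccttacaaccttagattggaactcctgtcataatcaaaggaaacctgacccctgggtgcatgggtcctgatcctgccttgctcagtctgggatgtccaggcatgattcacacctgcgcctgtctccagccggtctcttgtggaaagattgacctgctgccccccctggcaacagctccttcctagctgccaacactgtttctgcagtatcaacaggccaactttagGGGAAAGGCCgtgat
Sele chr1:164047984-164048233: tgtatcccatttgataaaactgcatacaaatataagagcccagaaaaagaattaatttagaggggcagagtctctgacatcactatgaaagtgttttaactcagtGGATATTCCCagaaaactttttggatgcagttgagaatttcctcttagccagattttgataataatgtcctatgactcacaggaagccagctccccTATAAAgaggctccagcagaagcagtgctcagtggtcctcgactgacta
In Icam1 GGAAATTCC lay 153 to 145 bases before the start and GGACCACCCC, which matches on the minus strand, 120 to 111. In Sele GGATATTCCC, also a minus-strand match, lay 145 to 136 bases before the start and TATAAA 49 to 44. In Selp GGGAAAGGCC lay 15 to 6 bases before it. GGGNNNNNCC occurs in 45.8% of 32851 mouse promoter windows of this length, GGAANTTCC in 0.813% and TATAAA in 7.59%, so the first is a common string. Of the 9 members 5 had a sequence in the RefSeq table used. Of those not printed, Itgam, whose tissue change was not called, also holds GGGNNNNNCC matches on both strands, and Itga4 holds none of the 3 strings in its window.

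Selp encodes P-selectin, which endothelium and platelets keep in granules and move to the surface on activation. It was absent from contralateral CTL tissue, with 0 counts in all 4 libraries. In ipsilateral CTL tissue it stood at 0 CPM in A2, 1.46 in A3, 0.97 in A4 and 1.40 in B1. Mouse A2 thus showed no Selp on either side, which at its depth allows up to 3 counts. In BLZ945 mice the ipsilateral values were 1.32 CPM in C2, 0.40 in C3, 0.63 in C4 and 4.50 in D1, and the contralateral values 0 apart from 0.094 in D1. The groups did not overlap in BLZ945 mice. Summed over mice the counts were 45 against 0 in CTL, at least 14.1-fold higher when the empty side is set to 3 counts over the group, and 69 against 1 in BLZ945, a ratio of 69.4 with an exact 95% counting interval of 12.1 to 2781. Mouse D1 gave 45 of these 69 counts and the single contralateral one. Such intervals cover counting error only. The edgeR adjusted p was 0.181 in CTL and 0.0616 in BLZ945 and 0.00502 for the mean of both responses. With mouse as a block it was 0.00483 in CTL and 0.0013 in BLZ945. With the other reading of A3 the mean response had an adjusted p of 0.304.

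Sele encodes E-selectin, which endothelium makes anew when cytokines act on it. Contralateral tissue held 2 counts in CTL and 1 in BLZ945 over all mice of the group. Ipsilateral values in CTL mice were 0.078 CPM in A2, 0.43 in A3, 0.088 in A4 and 0.33 in B1, with A3 and B1 above the contralateral range of 0 to 0.10 and A2 and A4 inside it. In BLZ945 mice they were 2.74 CPM in C2, 0.40 in C3, 0.53 in C4 and 4.79 in D1, above every contralateral value. The ratio of summed counts was 5.15 in CTL (11 against 2 counts, exact interval 1.12 to 47.8) and 86.5 in BLZ945 (86 against 1, exact interval 15.1 to 3457). edgeR called Sele in BLZ945 mice (adjusted p = 0.00875) and in the mean response (0.0119), with 0.915 in CTL. The BLZ945 call was lost without C2 or D1 (adjusted p of 0.10 and 0.101), the 2 mice with most Sele, and under the other reading of A3 (0.0703). The call on the mean was lost without A3, B1 or C2 (0.0757, 0.0538 and 0.0507) and under that reading (0.257).

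**Figure D1:**
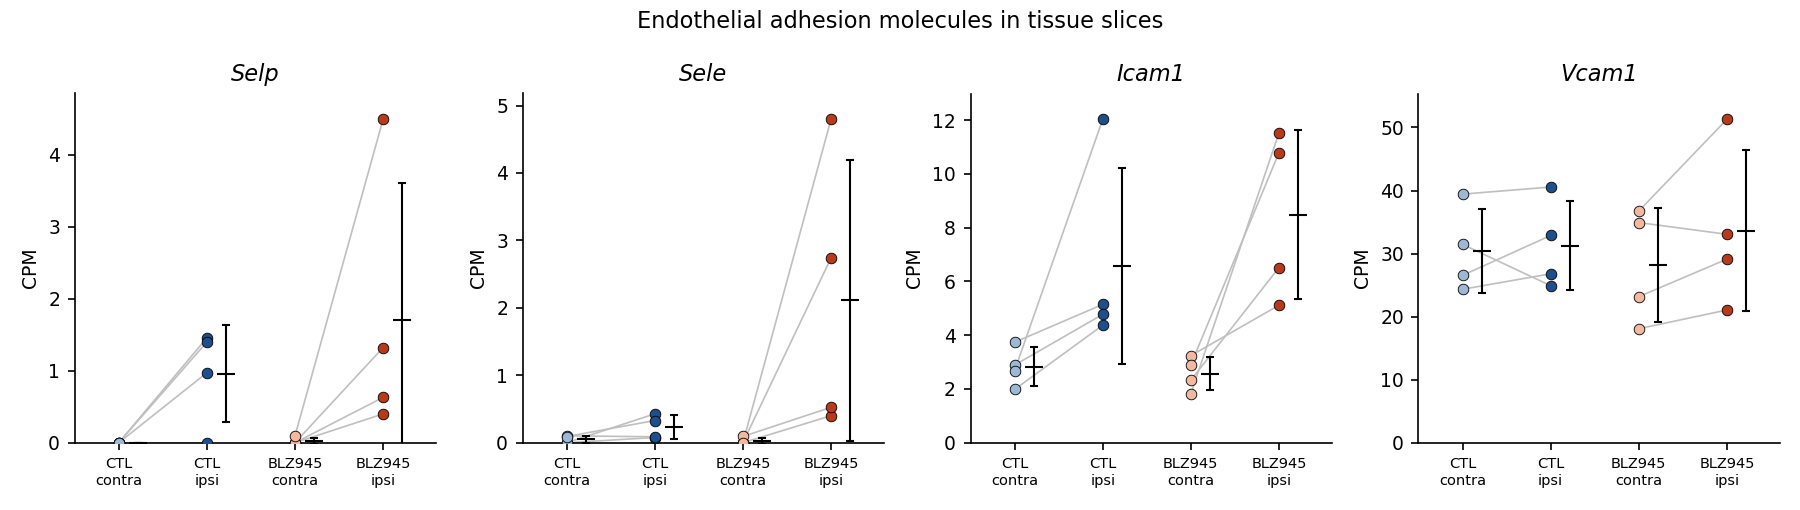
Levels of Selp, Sele, Icam1 and Vcam1 in tissue, in CPM on linear axes that start at 0, for the contralateral and ipsilateral hemispheres of 4 CTL and 4 BLZ945 mice. Points are libraries, grey lines join the hemispheres of 1 mouse and bars give the mean ± SD, cut at 0. Icam1 rises from contralateral to ipsilateral in every mouse, Selp is highest in D1 and Sele in D1 and C2, and Vcam1 overlaps between hemispheres.

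Icam1 encodes the ligand of LFA-1 and Mac-1 on endothelium, glia and leukocytes. Contralateral CTL tissue held 1.98 CPM in A2, 3.74 in A3, 2.89 in A4 and 2.68 in B1, and the ipsilateral side 4.37, 5.14, 4.78 and 12.0 in the same order. In BLZ945 mice C2, C3, C4 and D1 the contralateral values were 1.82, 3.24, 2.33 and 2.90 CPM and the ipsilateral 11.5, 5.11, 6.52 and 10.8. The lowest ipsilateral value of all 8 mice lay above the highest contralateral one, which 0.817% of all tissue genes show in this direction. The log2 fold change was 1.22 ± 0.35 (SE) in CTL (edgeR adjusted p = 0.261), 1.72 ± 0.35 in BLZ945 (0.0184) and 1.47 ± 0.25 for the mean of both (0.00203). The mean response stayed called with each mouse left out in turn (adjusted p 0.00171 to 0.0148) and had a p of 0.0702 under the other reading of A3, where the change was 1.34 on the log2 scale. BLZ945 mice alone lost the call without C2, C4 or D1 (0.223, 0.0712 and 0.119) and under the other reading (0.0942).

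Vcam1 encodes the ligand of VLA-4 and had the highest tissue level per kilobase of exon of the 4 endothelial members. In contralateral and ipsilateral tissue of the CTL mice A2, A3, A4 and B1 it stood at 31.5 and 24.9, 39.4 and 40.6, 24.3 and 26.8, and 26.5 and 32.9 CPM. The pairs for C2, C3, C4 and D1 were 36.7 and 51.3, 18.1 and 21.1, 23.2 and 29.1, and 34.9 and 33.1 CPM. Hemispheres overlapped in both treatments, and 3 of 4 mice of each were higher on the lesioned side. The log2 fold change was 0.04 ± 0.26 (SE) in CTL, 0.25 ± 0.26 in BLZ945 and 0.15 ± 0.18 for the mean, with edgeR adjusted p of 0.999, 0.82 and 0.82. A range of 2 SE around the mean response ran from -0.22 to 0.51, so a rise of the size seen for Icam1 lies outside it. The 6 choroid plexus markers varied between slices, with 0 of 6 called in the mean response. They summed to 2350 and 2608 CPM contralateral and ipsilateral in A3, 2456 and 4327 in C2, 2919 and 52.1 in D1 and 680 and 352 in B1, and to at most 80.1 in the other 4 mice. The 2 highest Vcam1 values, of C2 and A3, were in the ipsilateral libraries with most of these markers, and D1 was higher for both on the contralateral side. Without C2 the mean Vcam1 change was 0.09 and without D1 0.22, with adjusted p of 0.916 and 0.751, and the part of choroid plexus in it was not tested.

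Leukocyte-side members moved in both directions in tissue. Selplg, carried by neutrophils, monocytes, T cells and microglia, was lower on the lesioned side in all 8 mice. It stood at 21.2, 21.2, 24.2 and 23.1 CPM in the contralateral tissue of A2, A3, A4 and B1 and at 15.4, 18.3, 21.05 and 13.8 in the ipsilateral. The values for C2, C3, C4 and D1 were 21.1, 23.2, 24.6 and 17.9 CPM contralateral and 16.6, 11.2, 14.1 and 13.5 ipsilateral. Within each treatment the hemispheres did not overlap. The log2 fold change was -0.39 ± 0.14 (SE) in CTL (edgeR adjusted p = 0.569), -0.65 ± 0.15 in BLZ945 (0.0328) and -0.52 ± 0.10 for the mean (0.00719). The mean stayed called with each mouse left out in turn (0.00805 to 0.0387) and had a p of 0.104 under the other reading of A3. The call in BLZ945 mice was lost without A2, A3, C2, C3, C4 or D1 (0.0521 to 0.214) and under that reading (0.104). Beside Selplg the microglia markers P2ry12 and Siglech fell in the mean response, by 0.70 and 0.66 on the log2 scale. The other 4 of 6 markers were not called, 3 of the 6 changes were positive and the list median was -0.035. The list summed to 481 to 865 CPM contralateral and 564 to 909 ipsilateral in CTL and 366 to 974 and 372 to 882 in BLZ945. In bulk tissue fewer cells of a type and less RNA per cell cannot be told apart.

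Itgb2, the shared beta chain of LFA-1 and Mac-1, rose. It read 7.77, 4.76, 8.97 and 4.72 CPM contralateral in A2, A3, A4 and B1 and 9.14, 11.7, 12.2 and 13.02 ipsilateral. The contralateral values of C2, C3, C4 and D1 were 9.96, 7.003, 7.63 and 8.24 CPM and the ipsilateral 20.4, 13.9, 8.93 and 18.1. Every mouse was higher on the lesioned side, although the hemispheres overlapped in BLZ945 mice through C4. The log2 fold change was 0.82 ± 0.25 (SE) in CTL, 0.90 ± 0.25 in BLZ945 and 0.86 ± 0.17 for the mean, with edgeR adjusted p of 0.329, 0.0915 and 0.00904. Blocking on mouse gave 0.0407 in CTL and 0.0128 in BLZ945. Leaving out B1 gave 0.0536 for the mean, and the other reading of A3 gave 0.57 on the log2 scale with a p of 0.334.

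Itgam, the alpha chain of Mac-1, had a log2 fold change of 0.27 ± 0.20 (SE) in CTL, 0.72 ± 0.21 in BLZ945 and 0.50 ± 0.14 for the mean, with edgeR adjusted p of 0.983, 0.118 and 0.0803. Its ipsilateral CPM of 7.73 to 8.82 in CTL lay just above the contralateral 5.69 to 7.69, and in BLZ945 the ranges overlapped, 5.31 to 12.5 against 5.25 to 6.83. With mouse as a block Itgam was called in BLZ945 mice (adjusted p = 0.047) and in the mean (0.029). Itgal, the alpha chain of LFA-1, lay between 0.28 and 2.36 CPM in all 16 libraries, with a mean response of 0.19 ± 0.41 (SE, adjusted p = 0.911). Itga4, the alpha chain of VLA-4, lay between 5.15 and 12.5 CPM, with a mean response of -0.19 ± 0.20 (SE, 0.765). For neither did the hemispheres separate in either treatment.

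**Figure D2:**
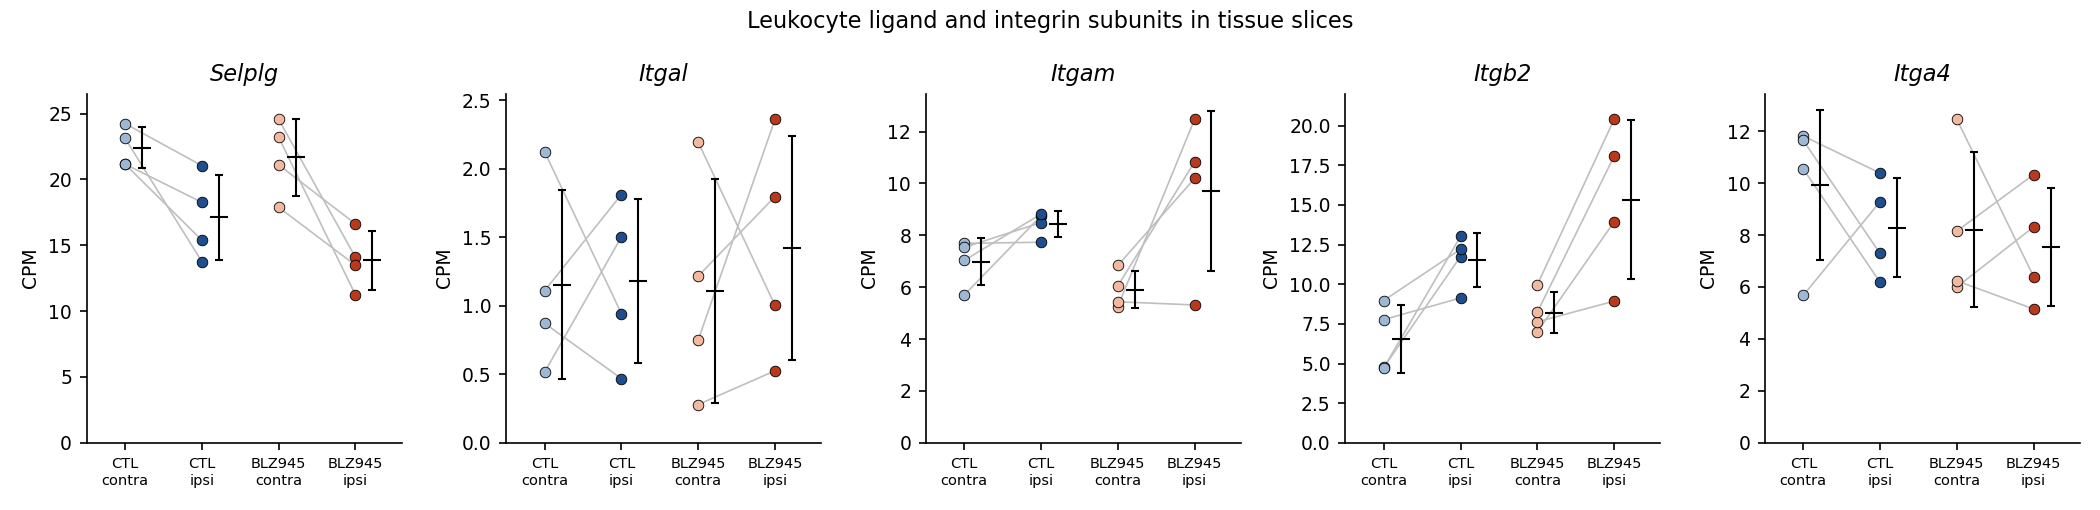
Levels of Selplg, Itgb2, Itgam, Itgal and Itga4 in tissue, in CPM on linear axes, for the contralateral and ipsilateral hemispheres of 4 CTL and 4 BLZ945 mice. Points are libraries, grey lines join the hemispheres of 1 mouse and bars give the mean ± SD. Lines for Selplg slope down and those for Itgb2 slope up in all 8 mice, whereas lines for Itgal and Itga4 cross.

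Counted over the members, edgeR called 4 higher and 1 lower in the mean tissue response, where 2.53% of all tested genes were called higher and 0.517% lower. Leaving aside Selp and Sele, which passed the filter through the lesioned side, the called members were Icam1 and Itgb2 upward and Selplg downward. In BLZ945 mice 2 were called higher (Icam1 and Sele) and 1 lower (Selplg), where the shares over all genes were 1.26% and 0.100%. Sele aside, only Icam1 was called higher there. DESeq2 called 6 members and 2.53% of all genes, and the fit blocked on mouse 6 members and 4.14%. Neither of these counts sets Selp and Sele aside. In CTL mice edgeR called 0 of 9 members, with 0.485% of all genes called higher and 0.00527% lower. At an unadjusted p under 0.05 the CTL count was 4 (Icam1, Selp, Selplg and Itgb2), with 6.23% of all genes. DESeq2 called 1 (Selp) and 0.854% of all genes, and the blocked fit 2 (Selp and Itgb2) and 1.32%. Selp aside, DESeq2 called no member in CTL and the blocked fit Itgb2 alone. Under the other reading of A3 the counts of members were 0 in the BLZ945 and the mean response, and over all genes 6 (0.0316%) and 1 (0.00527%). Over the 7 members other than Selp and Sele the median change was 0.04 in CTL, 0.37 in BLZ945 and 0.19 for the mean, with medians of all genes between -0.01 and -0.003. Libraries did not overlap for 3 members upward in CTL (Icam1, Itgam and Itgb2; 2.45% of all genes) and 1 downward (Selplg; 1.48%), and for 3 upward in BLZ945 (Icam1, Selp and Sele; 4.20%) and 1 downward (Selplg; 2.31%). Selp and Sele passed the filter through the side where they are high, which leaves Icam1 alone among the BLZ945 members upward.

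Markers of the cells that carry these molecules moved unevenly. The 10 endothelial markers summed to 274 to 387 CPM contralateral and 315 to 427 ipsilateral in CTL, and to 291 to 371 and 343 to 475 in BLZ945, with 2 of 10 called higher in the mean response, Pecam1 and Cdh5. The 8 neutrophil markers summed to only 4.82 to 9.89 CPM in any tissue library. Of the 5 that could be tested 3 had positive changes in the mean response, and S100a9 and Cxcr2 were called higher. Cxcr2 was at 0 in the contralateral tissue of both treatments, so it passed the filter through the lesioned side. Ly6g was at 0 in both CTL groups and in contralateral BLZ945 tissue. The 6 platelet markers summed to 2.61 to 5.21 CPM, with 0 called of 5 tested and Gp6 at 0 in all 4 groups. Monocyte markers summed to 19.4 to 38.1 CPM over both hemispheres, with 1 of 6 called, and T and NK cell markers to 1.05 to 3.01 CPM, with 0 of 5 called. Both sums overlapped between hemispheres in each treatment. Gene by gene, all 6 monocyte and all 5 T and NK cell changes were positive in the mean response. Their list medians were 2.31 and 1.38 on the log2 scale, or 1.58 and 1.11 under the other reading of A3. Ly6c2, Cd3g, Nkg7 and Gzma were at 0 in contralateral CTL tissue. The 8 CAM markers summed higher on the lesioned side in all 8 mice, 21.2 to 30.9 CPM contralateral and 30.8 to 41.8 ipsilateral, with Stab1 called and Folr2 at 0 in ipsilateral CTL tissue. The 4 astrocyte markers also summed higher in all 8, 811 to 1128 against 1268 to 1578 CPM in CTL and 982 to 1121 against 1501 to 1858 in BLZ945. Of these 4 only Gfap was called, and 3 had positive changes in the mean response, with a list median of 0.19. None of the marker genes stayed called in the mean response under the other reading of A3. The part of cell numbers in the changes of Selp, Sele, Icam1 and Itgb2 was not tested.

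Whether repopulation after BLZ945 altered these molecules was asked through the difference between the responses. edgeR called 0 members and 0% of all genes for that difference, with 0 members (2.04% of all genes) at an unadjusted p under 0.05 and 0 members and 0% of all genes by DESeq2. For Icam1 the response was larger in BLZ945 mice by 0.50 ± 0.49 (SE) on the log2 scale, with a range of 2 SE from -0.49 to 1.48. For Vcam1 it was larger by 0.22 ± 0.37, from -0.51 to 0.95. These intervals hold differences of either sign, so equal responses are not shown. In ipsilateral tissue BLZ945 against CTL gave 0 called members and 0% of all genes, 1 member (4.52% of all genes) at an unadjusted p under 0.05, and 0 members (0.00527%) by DESeq2. That member was Sele, with 86 counts in BLZ945 against 11 in CTL, a ratio of 9.35, a log2 fold change of 3.14 ± 0.79 (SE) and an unadjusted edgeR p of 0.00102 that became 0.958 over all genes. C3 and C4 at 0.40 and 0.53 CPM stood beside A3 at 0.43, so the treatments overlapped. The Selp counts were 69 and 45, a ratio of 1.83, with 0.84 ± 0.82 (SE) on the log2 scale, and Vcam1 differed by 0.11 ± 0.26. Selplg was lower in BLZ945 by a log2 fold change of -0.30 ± 0.15 (SE), with an adjusted p of 0.958. In contralateral tissue 0 members and 0% of all genes were called, with 0 members (3.25% of all genes) at an unadjusted p under 0.05 and 0 members (0%) by DESeq2. With the other reading of A3 all 3 of these tissue comparisons also called 0 genes.

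**Figure D3:**
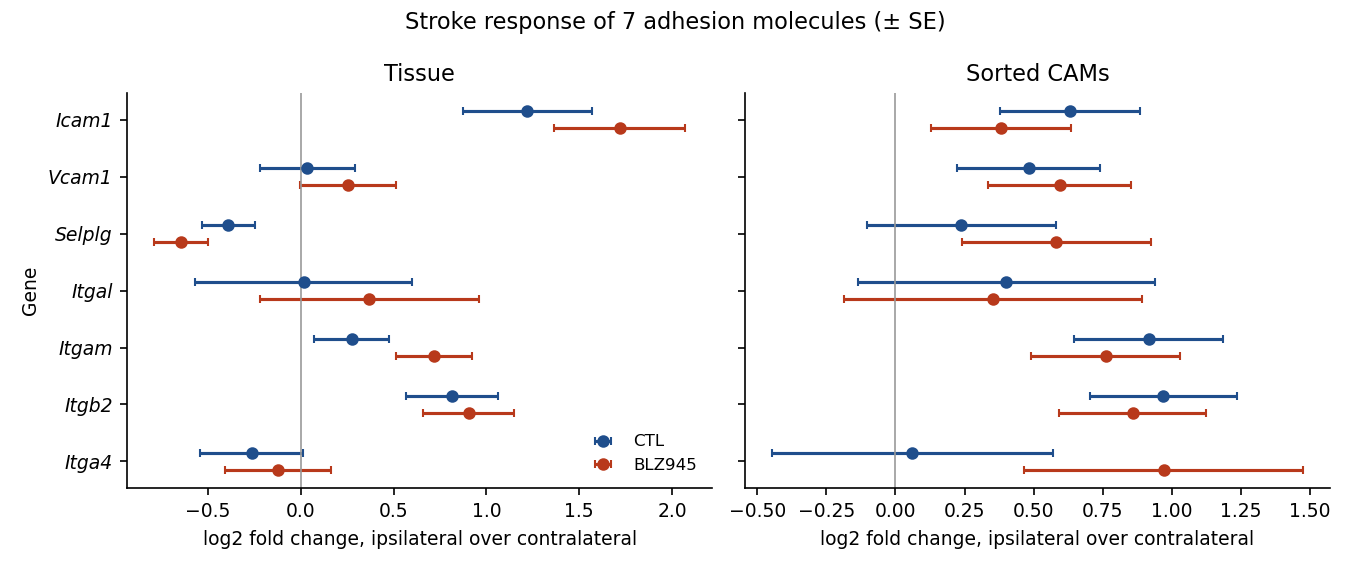
Log2 fold change, ipsilateral over contralateral, for 7 members in tissue and in sorted CAMs, fitted with edgeR in CTL and BLZ945 mice. Points are estimates, bars give ± 1 SE and the x axes of the panels differ in range. In tissue Icam1 at 1.22 and 1.72 stands apart from Vcam1 at 0.04 and 0.25. In CAMs the Itgam and Itgb2 estimates lie between 0.76 and 0.97 in both treatments. Selp and Sele are left out of both panels. Selp in contralateral CTL tissue and Sele in ipsilateral BLZ945 CAMs had 0 counts and so no bounded estimate.

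Sorted CAMs carried the myeloid members at high level. Per kilobase of exon, the scale on which genes can be compared, mean levels in contralateral CTL CAMs were 336 CPM for Selplg, 123 for Itgb2, 53.6 for Vcam1, 40.0 for Itgam, 26.1 for Icam1, 4.78 for Itgal, 1.71 for Itga4, 1.09 for Selp and 0.17 for Sele. Ranges over 4 libraries overlapped between Vcam1 and Itgam, between Itgam and Icam1, between Itga4 and Selp and between Selp and Sele, and did not at the other steps of that order. In contralateral CTL tissue the order per kilobase was Selplg 5.25, Vcam1 3.43, Itgb2 2.15, Itgam 1.39, Itga4 0.71, Icam1 0.65, Itgal 0.18, Sele 0.017 and Selp 0, with overlaps between Vcam1 and Itgb2, Itga4 and Icam1, and Sele and Selp. In ipsilateral BLZ945 tissue Itgb2 led at 5.03 ± 1.65 (SD, n = 4), followed by Vcam1 at 3.79 and Selplg at 3.24, and each gene overlapped the next. The tissue and CAM tables were normalized separately, so levels are set against each other within a table only.

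Itgb2 and Itgam rose in CAMs of the lesioned side. Itgb2 read 450, 290, 298 and 459 CPM in contralateral CAMs of A2, A3, A4 and B1 and 769, 675 and 754 in ipsilateral CAMs of A2, A4 and B1. In BLZ945 mice the contralateral values of C2, C3, C4 and D1 were 492, 326, 267 and 644 CPM and the ipsilateral values of C3, C4 and D1 were 800, 847 and 704. For Itgam the contralateral CTL values were 233, 135, 186 and 251 CPM against 361, 305 and 472 ipsilateral, and the BLZ945 values 284, 210, 132 and 299 against 393, 386 and 397. For both genes every ipsilateral library lay above every contralateral one, as for 1.32% of all genes. The mean response was 0.91 ± 0.19 (SE) for Itgb2 (edgeR adjusted p = 0.00462) and 0.84 ± 0.19 for Itgam (0.00831), and leaving out each mouse in turn kept both called. Within CTL mice the log2 fold changes were 0.97 ± 0.27 for Itgb2 (adjusted p = 0.0665) and 0.92 ± 0.27 for Itgam (0.0853), and within BLZ945 mice 0.86 ± 0.27 (0.0739) and 0.76 ± 0.27 (0.116, or 0.041 with mouse as a block). With both degraded libraries included the mean changes were 0.52 and 0.46 and neither was called (0.789 and 0.796).

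Icam1 and Vcam1 are also made by macrophages. In CAMs Icam1 read 93.6, 84.6, 114 and 162 CPM contralateral in A2, A3, A4 and B1 and 144, 162 and 222 ipsilateral in A2, A4 and B1. In C2, C3, C4 and D1 it read 150, 113, 109 and 151 CPM contralateral and in C3, C4 and D1 193, 192 and 126 ipsilateral. The mean response of 0.51 ± 0.18 (SE) had an edgeR adjusted p of 0.0655, with 0.63 ± 0.25 in CTL and 0.38 ± 0.25 in BLZ945 (0.201 and 0.385). Vcam1 lay between 271 and 613 CPM contralateral and 528 and 828 ipsilateral in CTL, and between 318 and 413 and 430 and 685 in BLZ945, where the groups did not overlap. Its mean response was 0.54 ± 0.18 (SE, adjusted p = 0.0562), with 0.48 ± 0.26 in CTL and 0.59 ± 0.26 in BLZ945 (0.329 and 0.192). Icam1 was called without D1 (0.0433) and Vcam1 without A2 (0.033).

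**Figure D4:**
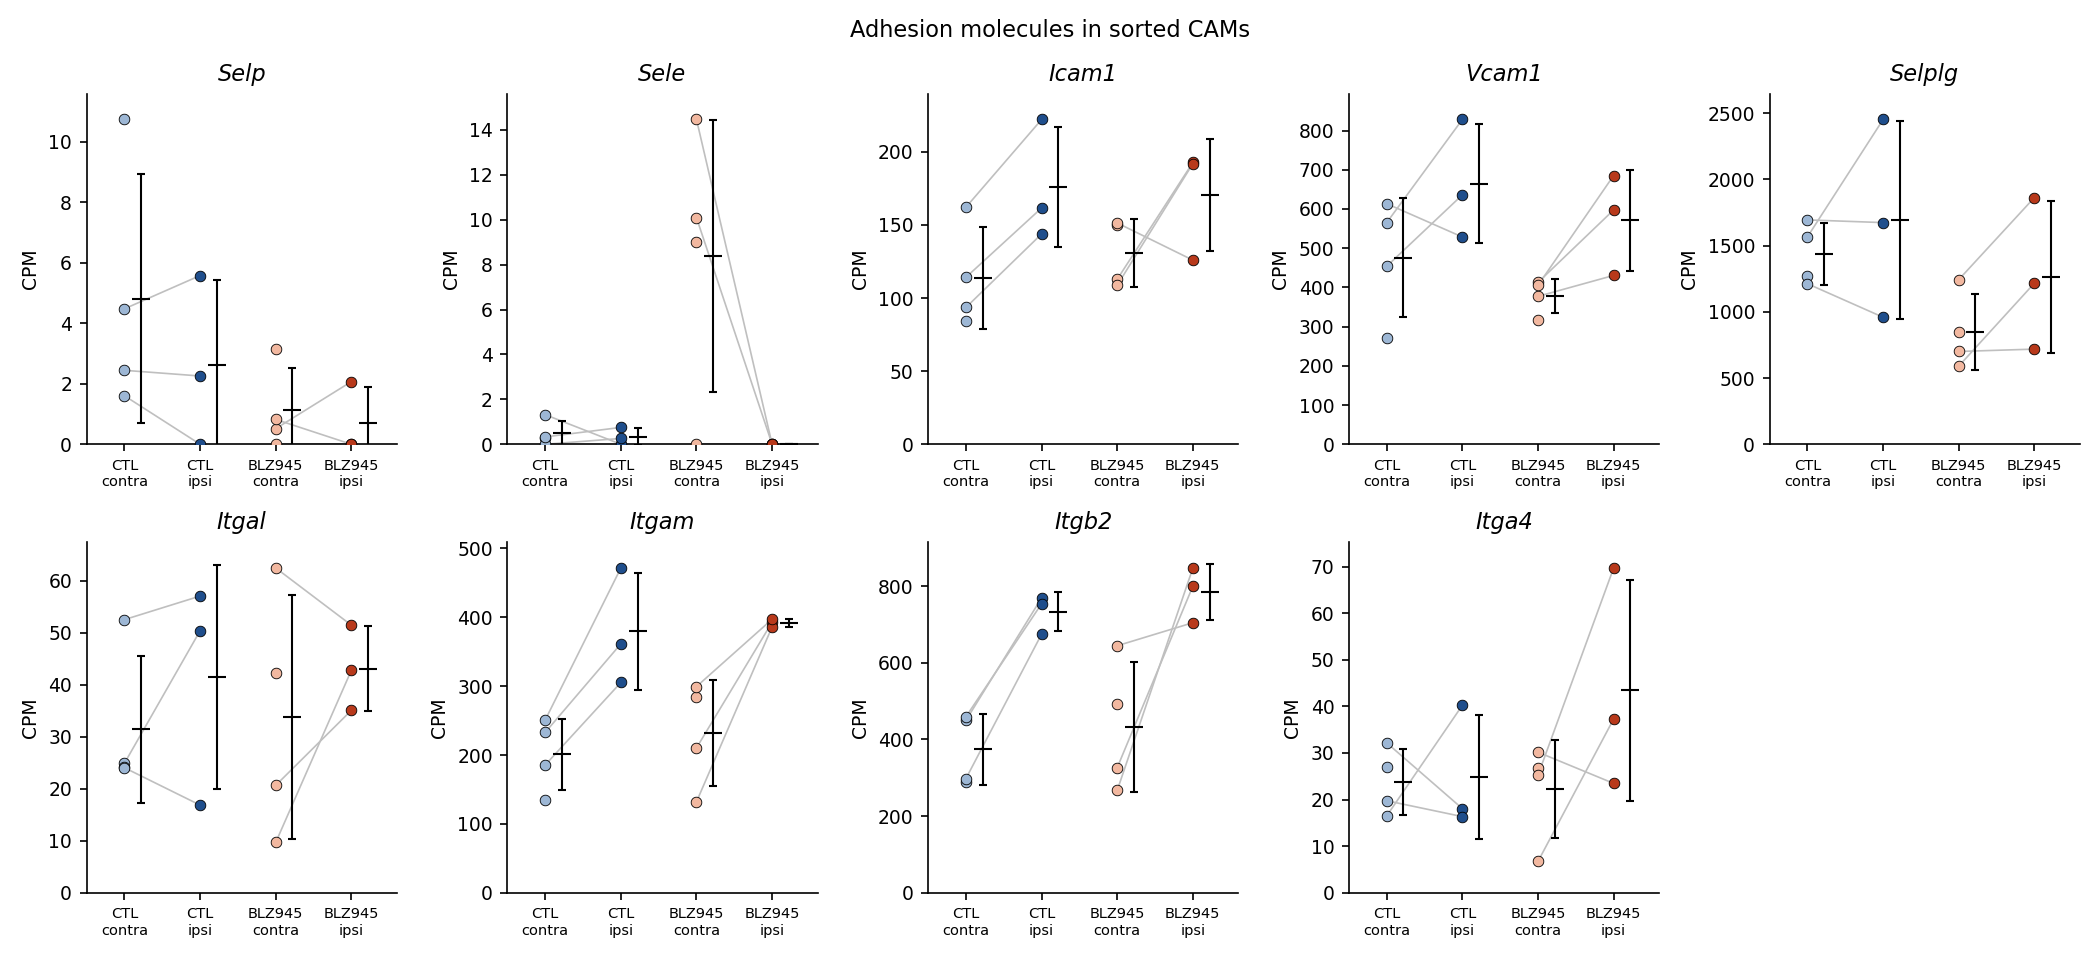
Levels of the 9 members in sorted CAMs, in CPM on linear axes that start at 0, for contralateral (4 libraries) and ipsilateral (3 libraries) hemispheres of CTL and BLZ945 mice. Points are libraries, grey lines join hemispheres of 1 mouse and bars give the mean ± SD, cut at 0. Itgam and Itgb2 separate by hemisphere in both treatments, and Sele stands above 8 CPM in 3 contralateral BLZ945 libraries alone.

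Selplg in CAMs read 1693, 1273, 1566 and 1212 CPM contralateral and 1673, 2451 and 959 ipsilateral in CTL, and 849, 1243, 590 and 700 against 1862, 1216 and 718 in BLZ945. Hemispheres overlapped in both, and the mean response was 0.41 ± 0.24 (SE, edgeR adjusted p = 0.267). Itgal gave 0.38 ± 0.38 (0.56) and Itga4 0.52 ± 0.36 (0.357). Itga4 spread widely, from 6.72 CPM in contralateral C3 to 69.7 in ipsilateral D1, and its response was larger in BLZ945 by 0.91 ± 0.72 (SE, adjusted p 0.9999). Selp lay between 0 and 10.7 CPM, with 87 ipsilateral and 235 contralateral counts in all and a mean response of -0.78 ± 1.26 (SE, 0.75).

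Sele, an endothelial gene, had its own pattern in the sorted libraries. Contralateral BLZ945 CAMs read 8.99 CPM in C2, 0 in C3, 10.1 in C4 and 14.5 in D1, and contralateral CTL CAMs 1.32, 0.29, 0 and 0.33. Ipsilateral values were 0 in A2, 0.26 in A4 and 0.75 in B1 and 0 in C3, C4 and D1. In BLZ945 mice 0 ipsilateral against 312 contralateral counts is at least 72.3-fold lower when the empty side is set to 3 counts over the group, with an edgeR adjusted p of 0.0569. The left-out ipsilateral library of C2, which is the mouse with no ipsilateral value here, held 3 Sele counts among its 55155. That is 54.4 CPM without TMM scaling, above every CAM library used, from a count at the floor. In CTL mice the counts were 9 and 20, and the fitted log2 fold change of -0.49 had an adjusted p of 0.933. The mean response fell (adjusted p = 0.0451), and the call was lost with mouse as a block (0.206), with all 16 libraries (0.91), and without any of A2, A3, A4, B1, C2, C4 or D1 (0.0613 to 0.117). BLZ945 against CTL on the contralateral side gave an unadjusted edgeR p of 0.0316 for Sele, with 4.08 ± 1.70 (SE) on the log2 scale, and 0.0304 for Selplg, with -0.76 ± 0.32, both 0.759 after adjustment.

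Other cell types moved with these results. All 10 endothelial markers fell in ipsilateral CAM libraries, and their sum was 1031 to 3121 CPM contralateral against 85.8 to 203 ipsilateral in CTL and 1746 to 3116 against 63.6 to 97.0 in BLZ945. Contralateral C3, where Sele was at 0, had 2602 CPM of endothelial markers, inside the range of the 3 libraries with Sele. Neutrophil markers summed to 2069 CPM in C2, 255 in C3, 3101 in C4 and 2560 in D1 on that side, so C3 was lowest for both, and to 304 to 771 in contralateral CTL CAMs and 315 to 1136 in all ipsilateral ones. These sums include Csf3r, with group means of 191 and 243 CPM contralateral and ipsilateral in CTL and 200 and 252 in BLZ945. Its change was not called in either treatment. C3 was also lowest of the 4 contralateral BLZ945 libraries for monocyte markers, at 171 CPM against 438 to 916, and for red blood cell markers, at 73.1 against 277 to 1159. It was not lowest for choroid plexus markers, at 20299 CPM, mural markers, at 302, fibroblast markers, at 176, or T and NK cell markers, at 119. Choroid plexus markers summed to 1429 to 37713 CPM in contralateral BLZ945 CAMs, 199 to 1513 in ipsilateral BLZ945, 30.7 to 9077 in contralateral CTL and 0.50 to 383 in ipsilateral CTL CAMs, with 4 of 6 called lower. CAM markers rose with Itgam and Itgb2, 7 of 8 called, with sums of 1707 to 5996 CPM contralateral and 4385 to 7915 ipsilateral in CTL and 1453 to 4292 and 5075 to 9365 in BLZ945. Microglia markers had positive changes for 6 of 6 in the mean response, with 1 called. Their sums were 12703 to 17566 CPM contralateral and 12480 to 25553 ipsilateral in CTL and 6588 to 12125 and 9153 to 19560 in BLZ945. The part of this change in composition in the member changes was not tested.

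**Figure D5:**
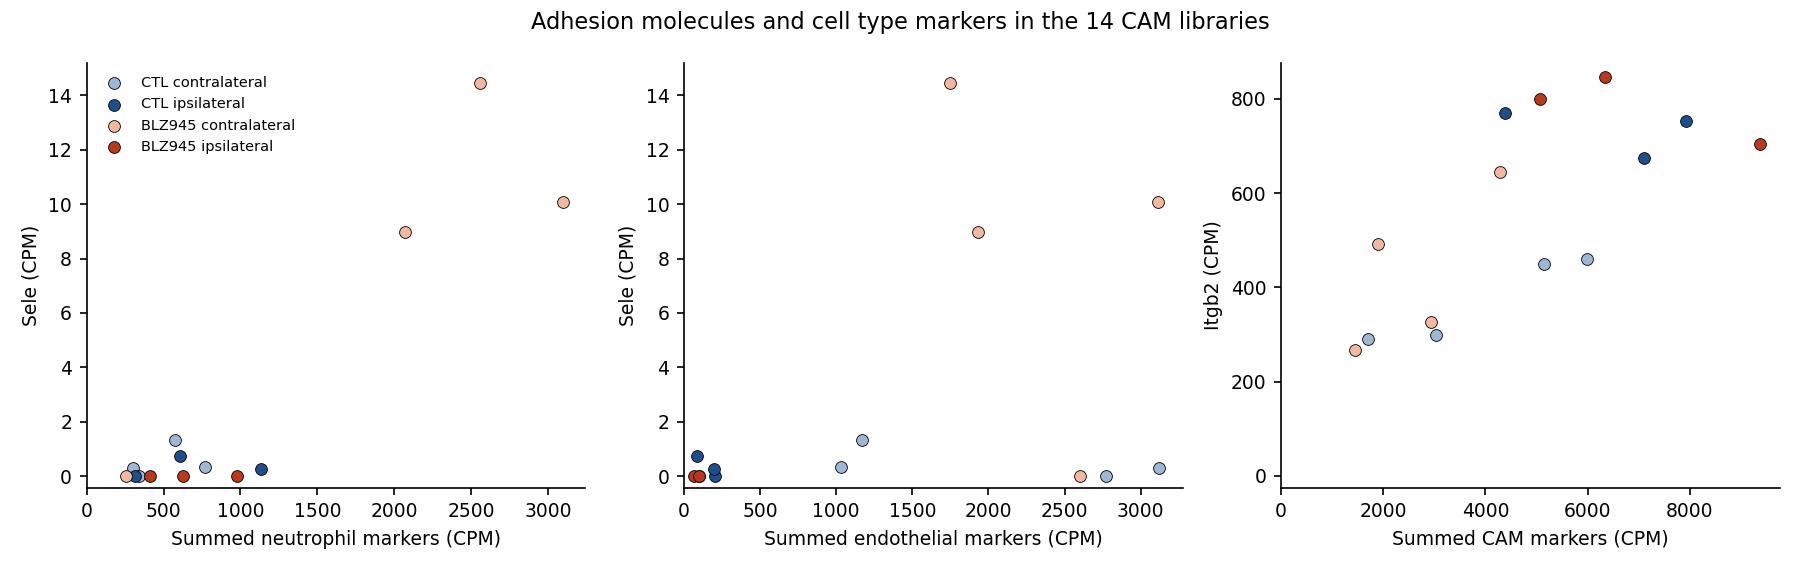
Member levels against summed CPM of marker genes in the 14 sorted CAM libraries, on linear axes, with points as libraries coloured by treatment and hemisphere. The panels show Sele against neutrophil markers, Sele against endothelial markers and Itgb2 against CAM markers. Endothelial markers lie at or above 1031 CPM in all 8 contralateral libraries and at or below 203 in the 6 ipsilateral ones, and CAM markers are higher on the ipsilateral side on average.

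In the CAM mean response edgeR called 2 members higher (Itgam and Itgb2) and 1 lower (Sele), where 4.98% and 11.2% of all genes were called in those directions. In CTL mice 0 members were called, with 0.426% of all genes higher and 2.36% lower, 3 members (18.3% of all genes) at an unadjusted p under 0.05 and 2 (9.96%) by DESeq2. In BLZ945 mice 0 members were called, with 1.20% and 4.41% of all genes, 4 members (22.3%) at an unadjusted p under 0.05 and 2 (13.8%) by DESeq2. Libraries did not overlap upward for 2 members in CTL (5.70% of all genes) and 3 in BLZ945 (7.44%). Without Selp and Sele the median member change was 0.48, 0.59 and 0.52 in CTL, BLZ945 and the mean, where the medians of all genes were -0.11, -0.15 and -0.16. The difference between responses and both comparisons of BLZ945 with CTL called 0 members and 0% of all genes with edgeR. DESeq2 also called 0 members, and 0.262% of all genes for the difference, 0.700% ipsilateral and 0.240% contralateral. At an unadjusted p under 0.05 there was 1 member for the difference (Sele, at 0.0103; 4.98% of all genes), 0 ipsilateral (5.65%) and 2 contralateral (Sele and Selplg; 6.19%).

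Partner genes of the pathway were counted from 6 lists in the mean response, to be read against the 2.53% of all tissue genes called higher. Under the other reading of A3 none of these genes stayed called in tissue. In tissue 7 of 13 integrin activation adaptors were called higher, among them Vav1 at a log2 fold change of 1.06, the Rap1 effector Apbb1ip at 0.92 and Rap1b at 0.34. Likewise 7 of 11 cytokines and receptors that induce endothelial adhesion molecules were higher, with the TNF receptor Tnfrsf1a at 1.40, Il1a at 1.68 and Tnf at 3.48. Among leukocyte integrins and sialomucins 5 of 13 were higher, including the hyaluronan receptor Cd44 at 2.56, Itgax at 1.89 and Itga6 at 0.46. Endothelial ligand and junction genes gave 3 of 14, Cdh5 (VE-cadherin) at 0.76, Pecam1 at 0.66 and Podxl at 0.53. The sheddase list gave 1 of 3, Adam8 at 2.10, with Adam17 at 0.19 and Adam10 at 0.11 not called. Selectin-ligand enzymes gave 0 of 9, with B4galt1 at 0.35, Gcnt1 at 0.34 and Tpst1 at 0.15. None of the 6 lists had a gene called lower in tissue. Median changes were 0.35 for adaptors, 0.79 for cytokines and receptors, 0.46 for integrins and sialomucins, 0.12 for endothelial ligands, 0.19 for sheddases and 0.09 for enzymes, against -0.01 for all genes.

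In CAMs the endothelial list went the other way, with 0 called higher and 8 of 14 lower, where 4.98% of all genes were called higher and 11.2% lower. These were Pecam1 (-3.43), Cdh5 (-3.86), Podxl (-4.30), Esam (-4.38), Icam2 (-3.19), Mcam (-4.12), Jam3 (-2.65) and Jam2 (-1.11). Integrins and sialomucins gave 6 higher, Itga9 (0.97), Itga6 (0.68), Itgav (0.65), Itga5 (1.05), Itgax (1.27) and the VLA-4 partner Itgb1 (0.38), and 1 lower, Cd24a (-2.23), of 13. Adaptors gave 7 higher of 13, Skap2 (0.91), Vav1 (1.03), the kindlin Fermt3 (0.80), Dock2 (0.86), Rassf5 (0.66), Apbb1ip (0.63) and Rap1b (0.38), and 1 lower, Rasgrp2 (-2.33). Tnfrsf1b (0.90) and Tnfrsf1a (0.56) were higher and Il1r1 (-2.63) lower among 11 cytokines and receptors. Of 3 sheddases Adam10 (0.75) and Adam17 (0.94) were higher, and of 9 enzymes Gcnt1 (0.93), which builds the core of selectin-binding glycans on PSGL-1. List medians were -1.88, 0.38, 0.63, 0.21, 0.94 and 0.26 in this order, against -0.16 for all genes.

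Patterns across libraries are given as a description, since the libraries share hemisphere and mouse. Over 16 tissue libraries the log2 CPM of Icam1 and Selp had a Pearson r of 0.86, Selp and Sele 0.84, Icam1 and Sele 0.82, and Icam1 and Selplg -0.71, while Vcam1 and Icam1 had 0.34. The 3 genes most like Selp were Lcn2 (0.94), Thbs1 (0.92) and Ifitm3 (0.92), the first a secreted acute-phase protein. Those most like Icam1 were the immediate-early genes Atf3 (0.95) and Zfp36 (0.95) and Clic1 (0.95). For Vcam1 they were Slc12a2 (0.94), Clu (0.94) and Ctdsp1 (0.93), and for Itgb2 Ftl1 (0.90), C1qc (0.89) and Parp9 (0.88). Over 14 CAM libraries Itgam and Itgb2 had an r of 0.95, Itgb2 was followed most closely by C3ar1 (0.96), G6pdx (0.96) and Mfsd1 (0.96), and Itga4 by Ankrd27 (0.80), Tcp11l1 (0.80) and Gm8369 (0.79).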

How the data were processed

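Bulk RNA-seq of tissue slices and sorted CAMs was deposited as gene counts. Per the labels and the study's methods, the authors demultiplexed with bcl2fastq 2.20, aligned with STAR 2.7.11a and deposited raw counts per gene from featureCounts 2.0.8, and used DESeq2 1.46.0. The exact genome build, annotation and strand setting are not given in the sources used here, and overlapping genes therefore cannot be separated. Kilobases of exon come from another annotation release (GENCODE vM21).

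Counts were analysed in R 4.3.3. A gene was kept when its counts summed to 8 or more in tissue or 7 or more in CAMs, libraries were TMM-scaled, and edgeR 4.0.16 quasi-likelihood tests (two-sided) were fitted over 4 groups in each table, with Benjamini-Hochberg adjustment over all genes. A standard error is the log2 fold change divided by the root of its F value. A count of 3 was taken as the floor of a library, 0.235 to 0.323 CPM in tissue and 0.271 to 0.406 in CAMs, before TMM scaling. DESeq2 1.42.0 and limma 3.58.1 served alternatives. The scripts were first tested on simulated counts with planted changes. No sample column was left unused.

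Members and gene lists were chosen with earlier results of these data known. Named beyond the members are, from each pathway list, the 3 genes with the lowest adjusted p in the tissue mean response and those called in the CAM mean response, and the 3 genes with the highest r to a member (mean of at least 1 CPM, prior count 2). Cell type markers are named where they stand beside a result.

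Both hemispheres come from the same mouse. Deviations of the 2 hemispheres correlated with a median r of 0.262 (0.110 to 0.445, 8 mice) in tissue and 0.0957 (0.0386 to 0.146, 6 mice) in CAMs, so a fit with mouse as a block was the alternative and is quoted where it changes a call. The labels used here separate no batches among the libraries, so no comparison within batches was made. The study's methods name 2 independent centers for its stroke RNA-seq, without saying which libraries came from each.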

Additional observations from a re-analysis of the deposited data

Results flagged for a closer look

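Of 53 groups of 4 or more libraries examined for a library far from the others, 4 held one. The rate of about 1 in 20 that chance gives holds for continuous values. It does not apply to the Selp and Sele groups below, where a single count beside libraries at 0 always passes. In ipsilateral CTL tissue Icam1 stood at 12.0 CPM in B1, while the other 3 mice lay at 4.37 to 5.14. In contralateral BLZ945 tissue the single Selp count, 0.0936 CPM, was in D1 and the single Sele count, 0.0930 CPM, in C4, with 0 in the other mice. In contralateral CTL CAMs Itgal stood at 52.5 CPM in B1, against 24.1 to 24.9 in A2, A3 and A4. Outside the libraries compared, the degraded ipsilateral CAM library of C2 held 214 Selplg counts among 55155, or 3880 CPM. That value, which is without TMM scaling, lay above the 590 to 1243 CPM of contralateral BLZ945 CAMs. No explanation of these values was tested.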

How the results depend on the processing

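Of 180 counts of called members recomputed under the alternatives, 159 stayed within 1.5 times the value reported and 21 did not. With mouse as a replicate block the count was 2 in the CTL and 6 in the BLZ945 tissue response and 1 in the BLZ945 CAM response, and the CTL change of Sele in CAMs turned to 0.16. The block changed no call of a member other than those given in the report. DESeq2's Wald test called 1 and 6 members in CTL and BLZ945 tissue and 2 and 2 in CAMs. With no filter on low counts 1 member was called in each CAM treatment, and with filterByExpr 1 in BLZ945 CAMs, where filterByExpr removed Sele from tissue. With the hemispheres of A3 read from the column names 0 members were called in the BLZ945 and the mean tissue response, and CTL Sele became -0.30, CTL Itgam -0.013 and the difference of responses for Selp 4.93. All 16 CAM libraries gave 0 members in the mean response. Leaving out each mouse in turn gave 0 to 3 members in BLZ945 tissue (0 without C2 or D1, 1 without C4), 3 to 6 in the tissue mean (3 without B1), 0 to 2 in CTL CAMs, 0 to 1 in BLZ945 CAMs and 2 to 3 in the CAM mean. It moved Sele in CTL CAMs from -1.94 to 1.29, BLZ945 against CTL in ipsilateral tissue from -0.27 to 1.16 for Selp and -0.18 to 0.27 for Vcam1, CTL Vcam1 in tissue from -0.049 to 0.15 and the mean Itgal in tissue from -0.052 to 0.54. The cause of these moves was not tested. Among 108 member changes 40 changed sign in at least 1 alternative, and 0 of these values were called. Over all genes the tissue mean counted 578 called genes, 1344 with the block, 886 with DESeq2 and 1 under the other reading of A3, and the CAM mean 2966, 1931 with the block, 4077 with DESeq2 and 1186 with all 16 libraries. Selp and Sele in tissue rest on 114 and 97 ipsilateral counts over all 8 mice, which limits their precision.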
